A study of Homo sapiens with 58 samples.

Results

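Chromatin accessibility was examined at the loci of 10 genes of the transforming growth factor beta (TGF-beta) pathway: the ligands TGFB1, TGFB2 and TGFB3, the receptors TGFBR1, TGFBR2 and TGFBR3, the ligand-tethering protein LTBP1, the signal transducer SMAD3 and the inhibitory SMADs SMAD6 and SMAD7. A regulatory element (RE) was assigned to a locus when its midpoint lay in the gene body or within 100 kb of an annotated start site of the gene (GENCODE v44, hg38). This gave 290 of the 151457 REs in the ATAC-seq count table. LTBP1 had 38 REs, SMAD3 42, SMAD7 37, SMAD6 36, TGFBR3 30, TGFB1 26, TGFB2 25, TGFBR2 23, TGFB3 17 and TGFBR1 16. REs are named by locus and numbered in genome order, so that SMAD3-RE6 is the RE at position 6 of the SMAD3 window. Assignment by distance does not tie an RE to the gene: the nearest protein-coding start belonged to the member gene for 2 of the 26 TGFB1 REs and 6 of the 17 TGFB3 REs, but for 35 of the 38 at LTBP1.

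The cells were cranial neural crest cells (CNCCs) made by differentiating H9 cells, a human embryonic stem cell line in wide use. In the SOX9-tagged cells, SOX9 carried an FKBP12-F36V tag that lets the molecule dTAGV-1 send the protein to degradation, in 2 clones (S9CC13 and S9CC47). Tagged cells received 0, 0.5, 1.6, 5, 16 or 500 nM dTAGV-1 for 48 h (n = 7 each), for which the labels give SOX9 levels of 100, 77.9, 51.7, 25.8, 8.14 and 0.95%. Untagged wild-type (WT) cells received 0 or 500 nM for 48 h (n = 2 each). A time course in tagged and in WT cells held vehicle for 24 h, 500 nM for 3 h after 21 h of vehicle, and 500 nM for 24 h (n = 2 each). Accessibility is given as CPM, counts scaled to library size with trimmed-mean factors, changes as log2 fold changes ± SE, and calls at an adjusted p of 0.05 from edgeR with the differentiation as a covariate and correction over all REs. Libraries held between 22.91 M and 81.04 M counts, and a member RE held a median of 138.2 counts per library. The 7 replicates of a dose came from 6 differentiations, with 4 replicates of S9CC13 and 3 of S9CC47, and differentiation R6 held both clones. All cells came from 1 line. Differences in level between differentiations were taken out by the covariate. Tests of tagged against WT effects used the replicate within each genotype as block instead. The p-values thus measure how far an effect varied over these differentiations and clones.

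TGF-beta ligands are secreted in a latent form, which LTBP1 anchors to the extracellular matrix. Released ligand binds TGFBR2, which then activates TGFBR1, and the betaglycan co-receptor TGFBR3 presents ligand, TGFB2 above all. Active TGFBR1 phosphorylates SMAD2 and SMAD3, which enter the nucleus with SMAD4, while SMAD6 and SMAD7 hold the cascade back. In neural crest derivatives the pathway is known for its part in palate and skeletal development. SOX9, a transcription factor of cartilage and neural crest, recognises DNA with the core letters ACAATG, and AP-1 factors, which often act beside SMADs, recognise TGANTCA.

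The sequences of 9 REs are given as examples. They come from the 18 REs with the largest decrease (10) or increase (8) of their locus among those changed alike in all 7 replicates, and the 9 were picked after their values and letters were seen, so they do not represent the 18. Each is a 160-base stretch of the hg38 plus strand, centred on the match nearest to the RE midpoint, or on the midpoint where there was no match. Capitals mark the SOX core ACAATG or its reverse complement CATTGT, and the AP-1 letters TGANTCA. Of all 10 such decreases, 6 hold a SOX core, and TGFB1-RE21, TGFBR1-RE14, TGFBR3-RE10 and SMAD7-RE18 hold none. The 6 decreases printed come first.
TGFB2-RE12: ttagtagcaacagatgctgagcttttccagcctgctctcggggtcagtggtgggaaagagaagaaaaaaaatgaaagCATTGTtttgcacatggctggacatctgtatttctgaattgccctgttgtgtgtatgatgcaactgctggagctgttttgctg
TGFBR2-RE5: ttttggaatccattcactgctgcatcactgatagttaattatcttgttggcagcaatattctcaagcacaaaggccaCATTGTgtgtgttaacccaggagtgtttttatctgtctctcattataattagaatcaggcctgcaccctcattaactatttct
SMAD3-RE6: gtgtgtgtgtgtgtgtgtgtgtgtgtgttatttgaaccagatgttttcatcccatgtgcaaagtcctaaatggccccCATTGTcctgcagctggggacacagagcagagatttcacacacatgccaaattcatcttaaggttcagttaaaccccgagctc
SMAD6-RE25: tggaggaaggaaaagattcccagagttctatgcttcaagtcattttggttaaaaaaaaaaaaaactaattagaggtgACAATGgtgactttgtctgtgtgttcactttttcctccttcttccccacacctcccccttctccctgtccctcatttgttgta
LTBP1-RE28: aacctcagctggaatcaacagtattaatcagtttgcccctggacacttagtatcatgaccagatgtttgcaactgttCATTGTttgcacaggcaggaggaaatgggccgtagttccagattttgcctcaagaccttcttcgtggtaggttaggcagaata
TGFBR3-RE10: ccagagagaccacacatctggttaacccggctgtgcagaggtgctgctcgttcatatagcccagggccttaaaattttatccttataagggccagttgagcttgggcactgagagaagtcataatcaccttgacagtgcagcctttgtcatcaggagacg
The 3 increases printed hold AP-1 letters. Of all 8 such increases, 5 hold AP-1 letters, TGFBR3-RE12 and SMAD3-RE1 hold a SOX core, and TGFB3-RE5 and LTBP1-RE26 hold neither.
TGFB1-RE10: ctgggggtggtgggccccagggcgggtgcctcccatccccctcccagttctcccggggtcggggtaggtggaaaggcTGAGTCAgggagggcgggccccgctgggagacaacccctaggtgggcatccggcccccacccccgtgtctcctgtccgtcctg
SMAD7-RE1: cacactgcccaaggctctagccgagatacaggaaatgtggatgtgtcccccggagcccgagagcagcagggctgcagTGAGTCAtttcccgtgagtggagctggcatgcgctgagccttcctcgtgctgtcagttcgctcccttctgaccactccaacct
TGFB2-RE19: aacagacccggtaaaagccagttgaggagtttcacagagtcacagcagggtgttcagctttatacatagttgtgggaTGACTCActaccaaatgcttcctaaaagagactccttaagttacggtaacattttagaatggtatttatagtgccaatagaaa
These stretches lie at chr1:218372100-218372259, chr3:30587217-30587376, chr15:67034469-67034628, chr15:66755981-66756140, chr2:33258549-33258708, chr1:91718917-91719076, chr19:41325103-41325262, chr18:48834791-48834950 and chr1:218460036-218460195, in the order printed. None of these REs had its midpoint in an exon of its member gene.

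Depletion of SOX9 with 500 nM for 48 h lowered 49 of the 290 REs and raised 37. Over all REs tested, 13.9% fell and 10.2% rose, against 16.9% and 12.8% of the members, so the loci as a group stood close to the background. The 10 loci differed in the balance of their called REs. SMAD3 (13 lower, 2 higher), TGFBR2 (6 lower, none higher), SMAD6 (10 lower, 5 higher) and TGFBR3 (6 lower, 2 higher) held mainly losses. SMAD7 (2 lower, 11 higher) and LTBP1 (2 lower, 8 higher) held mainly gains. TGFB2 had 5 lower and 2 higher, TGFB3 2 lower and 4 higher, TGFB1 1 lower and 3 higher, and TGFBR1 2 lower and none higher. The median log2 fold change was 0.22 at SMAD7 and 0.17 at LTBP1, -0.11 at SMAD3 and -0.09 at SMAD6, beside 0.02 over all REs. In bulk samples, fewer cells of a type and less accessibility per cell cannot be told apart. Besides the promoter and the largest decrease and increase of each locus shared by all 7 replicates, other REs are named below that were chosen after their values were seen (TGFB1-RE11, TGFB2-RE11, TGFB2-RE13, TGFB3-RE6, TGFB3-RE13, TGFBR2-RE3, TGFBR2-RE14, TGFBR2-RE15, SMAD3-RE12, SMAD3-RE29, SMAD6-RE27, SMAD6-RE34, SMAD7-RE20 and SMAD7-RE32). The naming rule asked for the same direction in all 7 replicates, so that agreement at a largest decrease or increase is no added support.

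**Figure D1:**
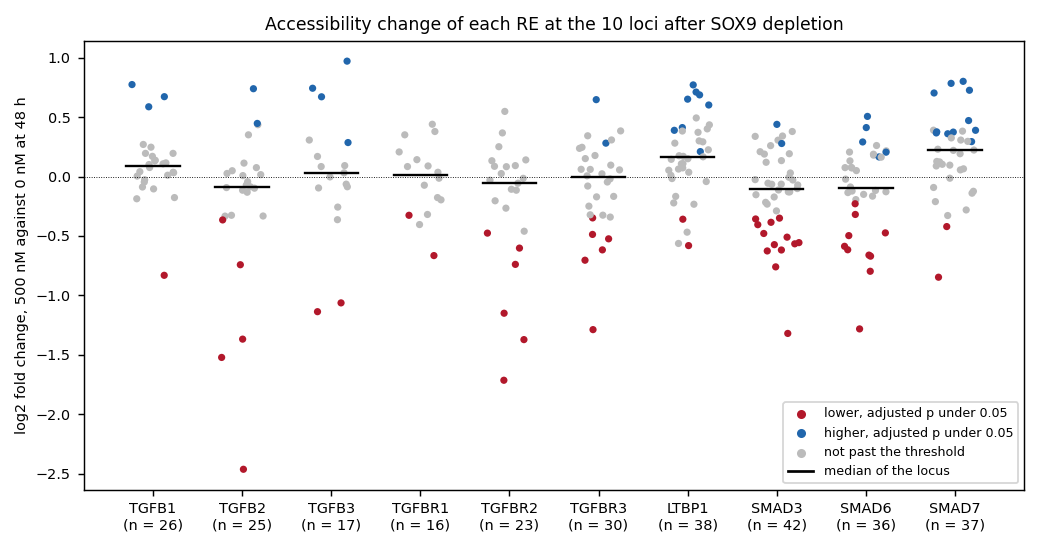
Each point is 1 RE, with the log2 fold change of 500 nM against 0 nM dTAGV-1 at 48 h (7 replicates a group) on the vertical axis and the locus on the horizontal axis. Red points fell and blue points rose past the adjusted p of 0.05, and the black bar is the median of the locus. The lowest point is TGFB2-RE12 at -2.46, and most coloured points are red at SMAD3 and TGFBR2 and blue at SMAD7 and LTBP1.

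By position, 33 of the 141 member REs inside a protein-coding gene and over 1 kb from any start site fell (23.4%, beside 16.2% of all REs so placed), and 14 rose (9.9%, beside 10.6%). Of the 87 member REs outside protein-coding genes and over 1 kb from any start site, 10 fell (11.5%, beside 15.1%) and 17 rose (19.5%, beside 12%). Within 1 kb of an annotated start site, 6 of 62 fell (9.7%, beside 8.3%) and 6 rose (9.7%, beside 6.3%). These counts are descriptions, and no difference between positions or from all REs was tested.

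TGFB2 held the largest change of the set. TGFB2-RE12 (chr1:218371875-218372375) lies in an intron of TGFB2, 26788 bp past the main start site. At 0 nM its accessibility was 4.80, 7.75 and 17.1 CPM (lowest, median and highest of 7), and at 500 nM it was 0.699, 1.67 and 2.47 CPM. The highest library at 500 nM lay below the lowest at 0 nM, and replicate S9CC47_R8 was highest in both groups. The log2 fold change was -2.46 ± 0.13 (adjusted p = 2.41e-13), and all 7 replicates fell. Its intronic neighbours TGFB2-RE11 and TGFB2-RE13 also fell, by 1.52 ± 0.19 and 0.74 ± 0.11 on the log2 scale. TGFB2-RE11 stood at 11.6 CPM in S9CC47_R8 against a median of 1.37 CPM at 0 nM, and all 7 replicates fell. Beyond the gene, in the LINC02869 transcript, TGFB2-RE19 rose from 5.36 ± 1.31 to 7.54 ± 2.87 CPM (SD, n = 7), a log2 fold change of 0.45 ± 0.11 (adjusted p = 0.00325) with overlapping groups. TGFB2-RE22, also in LINC02869 and noticed after its values were seen, had a larger fitted increase (0.74 ± 0.18, adjusted p = 0.00275) but rose in 6 of 7 replicates.

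At TGFB3, both losses lay in neighbouring genes. TGFB3-RE2 (chr14:75867811-75869116), inside TTLL5, held 3.71, 5.82 and 7.67 CPM at 0 nM and 1.77, 2.32 and 3.47 CPM at 500 nM, with no overlap. Its log2 fold change was -1.14 ± 0.15 (adjusted p = 2.65e-06). TGFB3-RE13, inside IFT43, fell by 1.06 ± 0.09 on the log2 scale, from 17.0 ± 4.56 to 8.05 ± 1.65 CPM, again with no overlap. Of the 4 gains, TGFB3-RE5 (chr14:75946750-75947250), where IFT43 and TTLL5 overlap, rose from 1.70 ± 0.22 to 2.90 ± 0.79 CPM, a log2 fold change of 0.74 ± 0.13 (adjusted p = 1.48e-04), with 7 of 7 replicates higher. TGFB3-RE6, at an internal start site of TGFB3, had the largest fitted increase of the set, 0.97 ± 0.16, but rose in 6 of 7 replicates: its 500 nM values ran from 1.8 to 7.1 CPM around a median of 5.18 CPM.

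At TGFB1, an intronic RE gained accessibility. TGFB1-RE10 (chr19:41324838-41325338), 28835 bp past the main start site, held 5.43, 12.3 and 16.9 CPM at 0 nM and 10.2, 20.1 and 30.7 CPM at 500 nM. The groups overlapped because replicates differed in level, with S9CC47_R8 lowest and S9CC13_R10 highest in both. Each replicate rose, as the naming rule required. The log2 fold change was 0.77 ± 0.11 (adjusted p = 3.44e-06). TGFB1-RE11, on a TGFB1 exon, rose by a log2 fold change of 0.67 ± 0.12. The one loss of the locus, TGFB1-RE21 at a start site of BCKDHA, had a log2 fold change of -0.83 ± 0.15 (adjusted p = 1.61e-04), and its level at 0 nM ran from 1.15 CPM in S9CC13_R10 to 11.7 CPM in S9CC47_R8.

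At LTBP1, 8 of 38 REs rose at 48 h (21.1%, beside 10.2% of all REs). In the time course (n = 2 a group), 3 were lower and 0 higher at 3 h (7.9% and 0%, beside 7.43% and 0.912% of all REs). At 24 h, 4 were lower and 5 higher (10.5% and 13.2%, beside 9.93% and 4.7% of all REs). The effect of 500 nM at 48 h differed between tagged and WT cells at 1 RE of the locus. Its change was more positive in tagged cells (2.6%, beside 3.56% of all REs), and 0 were more negative (beside 7.29%). LTBP1-RE26 (chr2:33217295-33217795), in an intron, held 1.57, 2.01 and 2.59 CPM at 0 nM and 2.99, 3.22 and 4.37 CPM at 500 nM. Every library at 500 nM lay above every library at 0 nM, and the log2 fold change was 0.77 ± 0.12 (adjusted p = 2.16e-05). The largest loss, the intronic LTBP1-RE28 (chr2:33258356-33258856), went from 2.92 ± 0.99 to 1.99 ± 0.90 CPM, a log2 fold change of -0.58 ± 0.13 (adjusted p = 0.00179). Its groups overlapped, and all 7 replicates fell as the naming rule required.

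At the receptor loci most REs were not called, and most of those called fell. The median log2 fold change was 0.01 at TGFBR1, -0.06 at TGFBR2 and -0.01 at TGFBR3. TGFBR2-RE5 (chr3:30587064-30587564), 19288 bp before the TGFBR2 start site, was weak, with 0.440, 0.977 and 1.66 CPM at 0 nM and 0.161, 0.221 and 0.580 CPM at 500 nM. Its groups overlapped, all 7 replicates fell, and the log2 fold change was -1.71 ± 0.28 (adjusted p = 4.21e-05). TGFBR2-RE3, further from the gene, fell by 1.37 ± 0.22 on the log2 scale without overlap, from 1.33 ± 0.45 to 0.520 ± 0.19 CPM. The most accessible of the falling TGFBR2 REs, TGFBR2-RE14, lies at an internal start site and went from 28.0 ± 5.33 to 17.1 ± 4.94 CPM (log2 fold change -0.74 ± 0.08, adjusted p = 3.23e-08). The intronic TGFBR2-RE15 fell by 1.15 ± 0.13 on the log2 scale, with S9CC47_R8 again highest in both groups.

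At TGFBR3, which encodes betaglycan, TGFBR3-RE10 (chr1:91718747-91719247) in an intron held 1.26, 1.76 and 2.4 CPM at 0 nM and 0.457, 0.616 and 1.34 CPM at 500 nM. Its groups overlapped through S9CC47_R6, the highest library at 500 nM, and the log2 fold change was -1.29 ± 0.20 (adjusted p = 1.65e-05). The gain at TGFBR3-RE12 was small, from 6.25 ± 1.56 to 7.53 ± 1.18 CPM (0.28 ± 0.10, adjusted p = 0.0335), and lost its call without S9CC13_R10 (0.28, adjusted p = 0.0681) or S9CC13_R13 (0.24, adjusted p = 0.074). TGFBR1 had the smallest share of REs called at 48 h (12.5%). In the time course (n = 2 a group), 3 of its 16 REs were lower at 3 h (18.8%, beside 7.43% of all REs). At 24 h, 5 were lower (31.2%, beside 9.93%). Its largest loss in all 7 replicates, the intergenic TGFBR1-RE14 (chr9:99184535-99185035), went from 11.8 ± 0.76 to 9.45 ± 1.27 CPM, a log2 fold change of -0.33 ± 0.10 (adjusted p = 0.0133) that lost its call without S9CC13_R10 (-0.29, adjusted p = 0.056).

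At SMAD3, 13 of 42 REs fell, which is 31.0% against 13.9% of all REs. SMAD3-RE6 (chr15:67033940-67034781), intergenic and 31242 bp before the main start site, was the most accessible of them. It held 22.7, 28.1 and 33.0 CPM at 0 nM and 9.86, 10.9 and 14.5 CPM at 500 nM. The groups did not overlap, all 7 replicates fell, and the log2 fold change was -1.32 ± 0.07 (adjusted p = 8.1e-13). Of the other losses, SMAD3-RE12 at an internal start site went from 18.3 ± 4.63 to 12.3 ± 2.52 CPM (-0.56 ± 0.10), and SMAD3-RE29 in an intron went from 12.2 ± 4.34 to 7.87 ± 2.52 CPM (-0.62 ± 0.14). The remaining losses at the locus ranged from -0.76 to -0.35. The upstream SMAD3-RE1 (chr15:66996069-66996569) rose by 0.44 ± 0.14 on the log2 scale (adjusted p = 0.0254), a call that was lost without S9CC13_R10 (0.36, adjusted p = 0.0954).

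**Figure D2:**
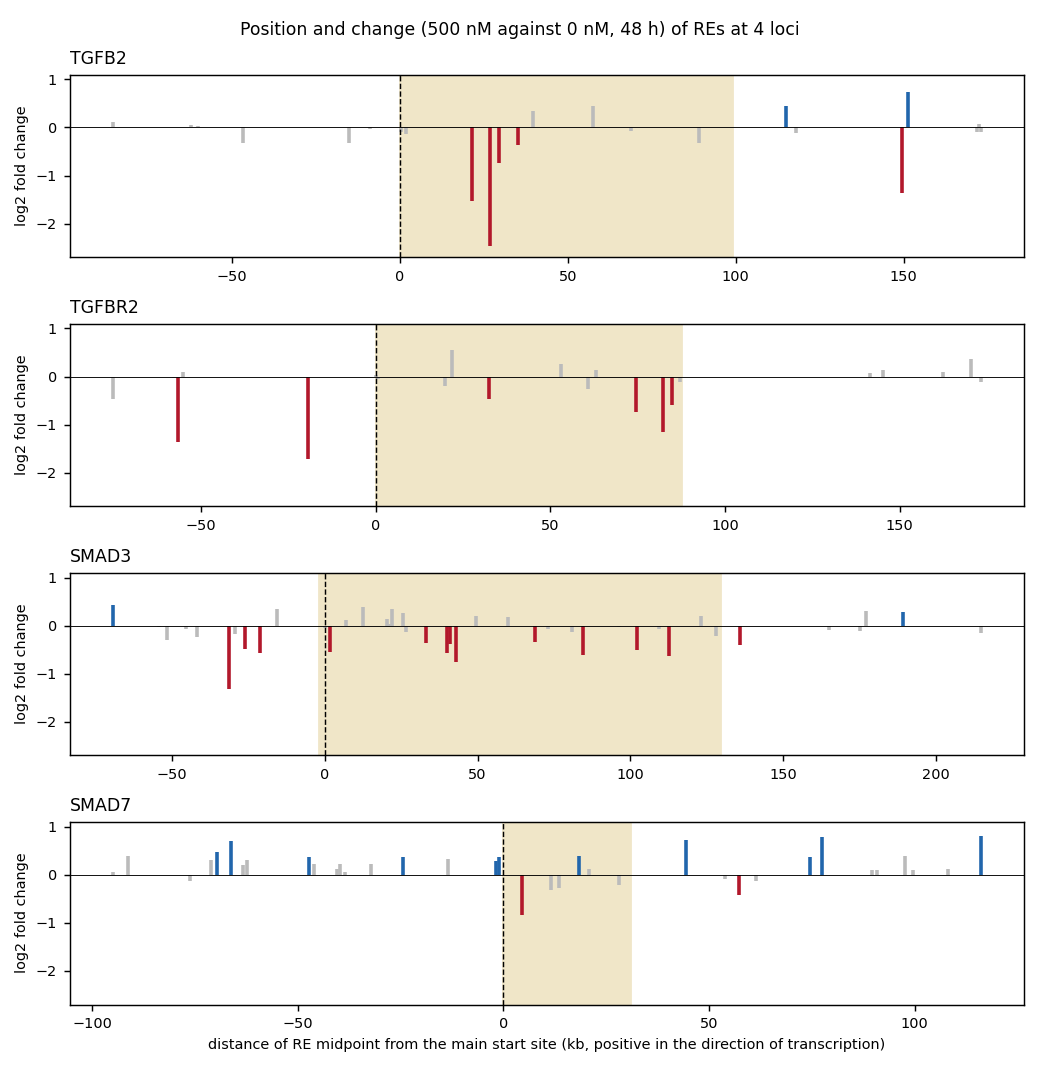
The REs of TGFB2, TGFBR2, SMAD3 and SMAD7 are drawn at their distance in kb from the main start site (dashed line; shaded, gene body), with the log2 fold change of 500 nM against 0 nM at 48 h as bar height. Red bars fell and blue bars rose past the adjusted p of 0.05. The 4 neighbouring red bars in TGFB2 include TGFB2-RE12, red bars spread along and before SMAD3, and most coloured bars at SMAD7 are blue and lie outside the gene.

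The inhibitory SMADs differed from each other in their counts. SMAD6 and SMAD3 lie close together on chromosome 15, and their windows do not share an RE. At SMAD6, the intronic SMAD6-RE25 (chr15:66755777-66756277) held 0.710, 1.15 and 2.68 CPM at 0 nM and 0.231, 0.537 and 0.978 CPM at 500 nM. The groups overlapped, and the log2 fold change was -1.28 ± 0.19 (adjusted p = 1.65e-05), with all 7 replicates lower as the naming rule required. SMAD6-RE27 and SMAD6-RE34 fell by 0.80 ± 0.16 and 0.67 ± 0.12 on the log2 scale. SMAD6-RE15 rose from 0.850 ± 0.28 to 1.20 ± 0.24 CPM (0.51 ± 0.18, adjusted p = 0.0365). That call was lost with DESeq2 (adjusted p = 0.0504) and without any one of S9CC13_R13, S9CC13_R14, S9CC13_R6, S9CC47_R5 or S9CC47_R6, where the log2 fold change ran from 0.46 to 0.52.

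At SMAD7, which TGF-beta signalling itself induces, 11 of 37 REs rose (29.7%, against 10.2% of all REs). SMAD7-RE1 (chr18:48834577-48835077), at the start site of a noncoding transcript inside CTIF, held 1.20, 1.39 and 2.70 CPM at 0 nM and 1.65, 2.59 and 5.08 CPM at 500 nM. The groups overlapped, each replicate rose, and the log2 fold change was 0.80 ± 0.13 (adjusted p = 5.02e-05). SMAD7-RE32 rose by 0.70 ± 0.14, and SMAD7-RE20, just upstream of the gene and more accessible, went from 19.9 ± 6.52 to 24.9 ± 4.78 CPM (0.36 ± 0.08). In the opposite direction, SMAD7-RE18 (chr18:48946142-48946642) in an intron went from 4.69 ± 1.49 to 2.68 ± 1.17 CPM, a log2 fold change of -0.85 ± 0.15 (adjusted p = 1.26e-04).

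The main promoters of the 10 genes moved little. The most accessible RE at an own start site ranged from 8.62 ± 2.85 CPM at TGFB1 to 51.1 ± 6.23 CPM at TGFB3 at 0 nM. Among these 10 promoter REs, the log2 fold change at 500 nM ran from -0.10 at TGFB2-RE8 to 0.21 at LTBP1-RE9. Past the threshold were LTBP1-RE9 (0.21 ± 0.08, adjusted p = 0.0442) and SMAD6-RE19 (0.17 ± 0.06, adjusted p = 0.0297). The LTBP1-RE9 call was lost with DESeq2 (adjusted p = 0.0623), with RLE factors (0.0515) and without S9CC13_R14 (0.068), S9CC47_R6 (0.0664) or S9CC47_R8 (0.169), and the SMAD6-RE19 call was lost without S9CC47_R8 (0.13, adjusted p = 0.124). TGFBR1-RE6, at 0.14 ± 0.06 (adjusted p = 0.0793), passed the threshold without scaling factors (adjusted p = 0.0172), with the replicate as block (adjusted p = 0.037) or without S9CC13_R13 (adjusted p = 0.0406). The other promoter REs, TGFB1-RE14, TGFB3-RE9, TGFBR2-RE6, TGFBR3-RE26, SMAD3-RE11 and SMAD7-RE19, had log2 fold changes between -0.06 and 0.12.

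Partial depletion moved fewer REs. At 16 nM, 25 member REs fell and 21 rose (over all REs, 9.12% and 7.12%). At 5 nM, 12 fell and 2 rose (over all REs, 4.24% and 1.08%). At 1.6 nM edgeR called 0 member REs (0.0383% of all REs), with 15 at an unadjusted p under 0.05, and DESeq2 called 1. At 0.5 nM edgeR and DESeq2 called 0 (0% of all REs), with 9 at an unadjusted p under 0.05. The doses share the 0 nM libraries. With the replicate, in place of the differentiation, as block, 82 member REs passed at 16 nM (37 lower, 45 higher) and 4 at 1.6 nM, all lower. Library S9CC47_R6 stood apart at 5 nM, and without that replicate 28 REs passed at 5 nM (18 lower, 10 higher) and 3 at 1.6 nM. Without S9CC13_R6, 1 RE passed at 1.6 nM and 1 at 0.5 nM.

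The extent reached at each dose was expressed as the share of the 500 nM change in CPM. Over the 49 falling REs, the median share was 13% at 1.6 nM, 38.9% at 5 nM and 63.2% at 16 nM. Over the 37 rising REs it was 6.5%, 37.9% and 58.9%. These REs were chosen by their 500 nM change, which is also the divisor, and both changes use the same 0 nM libraries. The shares at lower doses may thus be biased in either direction. Shares over all REs of the table were not computed. SMAD3-RE6 stood at 28.8 ± 3.45, 26.4 ± 3.34, 20.0 ± 3.26 and 14.6 ± 2.05 CPM at 0.5, 1.6, 5 and 16 nM, which is -1.1 ± 8.2, 13 ± 9.4, 50.6 ± 15.2 and 82.1 ± 19.4% of its full loss (SD, n = 7). TGFB2-RE12 reached 36.6 ± 27.6% at 1.6 nM and 70.3 ± 34.6% at 5 nM, which on the log2 scale were 21.7 ± 12.9% and 52.1 ± 14.9%. At 16 nM, TGFB3-RE2 stood at 101.9 ± 53.9% and SMAD7-RE18 at 39.0 ± 30.3%, values that overlap within their SDs.

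Among the gains, LTBP1-RE26 stood at -0.5 ± 34.6% at 1.6 nM and 105.1 ± 69.4% at 16 nM. TGFB1-RE10 reached 31.8 ± 45.7% at 16 nM, and SMAD7-RE1 reached 48.9 ± 37.0%. For most REs the SD over replicates was as large as the differences between neighbouring doses, so an order of REs by dose was not resolved, and no difference between REs was tested.

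**Figure D3:**
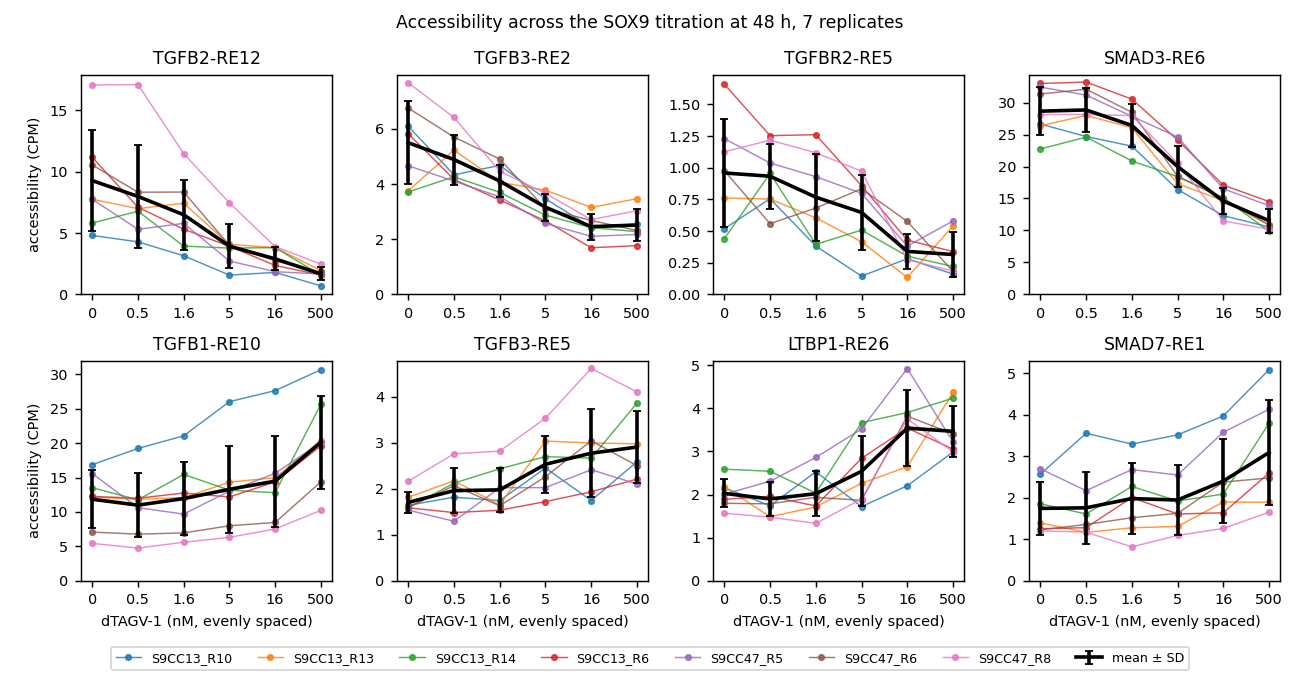
Accessibility in CPM is plotted against dTAGV-1 dose (evenly spaced categories) for 8 REs in SOX9-tagged cells at 48 h. Coloured lines are the 7 replicates and the black line is the mean ± SD. The 4 REs of the upper row fall and the 4 of the lower row rise, and S9CC47_R8 is highest for TGFB2-RE12 and lowest for TGFB1-RE10.

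In the time course, with libraries separate from those of the dose series, losses came first. After 3 h of 500 nM, 25 member REs were lower and 2 higher (7.43% and 0.912% of all REs). After 24 h, 36 were lower and 20 higher (9.93% and 4.7% of all REs). Of the 49 REs that fell at 48 h in the dose series, 21 were lower at 3 h (42.9%, beside 43.3% for all REs that fell at 48 h), and these made up 21 of the 25 lower at 3 h. Of the 37 that rose at 48 h, 1 was higher at 3 h and 14 at 24 h (37.8%, beside 26.2% for all rising REs). With 2 replicates, calls leaned on each, the gains at 24 h most. Without tagged R4, 10 REs were lower and 0 higher at 3 h, and 11 lower and 1 higher at 24 h. Without R5, 14 were lower and 1 higher at 3 h, and 26 lower and 7 higher at 24 h. DESeq2 called 14 lower and 1 higher at 3 h, and 19 lower and 11 higher at 24 h.

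TGFB2-RE12 held 10.9 and 24.9 CPM with vehicle, 3.26 and 4.22 CPM after 3 h and 2.47 and 4.15 CPM after 24 h. Both treated pairs lay below both vehicle libraries, and the log2 fold changes were -2.23 ± 0.16 and -2.44 ± 0.17, beside -2.46 at 48 h. SMAD3-RE6 held 27.9 and 32.5 CPM with vehicle, 17.6 and 17.7 CPM after 3 h and 11.8 and 14.4 CPM after 24 h, so that its loss at 3 h (-0.84 ± 0.10, adjusted p = 1.06e-05) was smaller than at 24 h (-1.27). SMAD6-RE25 stood at 1.49 and 3.45 CPM with vehicle and 0.466 and 0.604 CPM after 3 h, a log2 fold change of -2.23 ± 0.28 (adjusted p = 1.26e-05), beside -1.28 at 48 h in other libraries. TGFBR2-RE3 and TGFBR2-RE5 were also lower by more at 3 h (-2.71 and -2.65) than at 48 h (-1.37 and -1.71); that difference between experiments was not tested.

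TGFB1-RE10 was one of the 2 REs higher at 3 h (0.50 ± 0.12, adjusted p = 0.0131), a call lost without tagged R4 (0.46, adjusted p = 0.506) or R5 (0.54, adjusted p = 0.301). The REs TGFBR1-RE12, SMAD3-RE37, LTBP1-RE5 and TGFBR1-RE13 were lower at 3 h and not called at 48 h. Of these 4, SMAD3-RE37 (-1.29 ± 0.34 at 3 h), LTBP1-RE5 (-1.07 ± 0.28) and TGFBR1-RE13 (-0.85 ± 0.20) had the largest changes, beside -0.10, -0.47 and -0.32 at 48 h. The SMAD3-RE37 call was lost without R4 (adjusted p = 0.722) or R5 (0.272), the TGFBR1-RE13 call likewise (0.289 and 0.0587), and the LTBP1-RE5 call without R5 (0.223). LTBP1-RE5 passed at 48 h with the replicate as block (adjusted p = 0.0353).

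**Figure D4:**
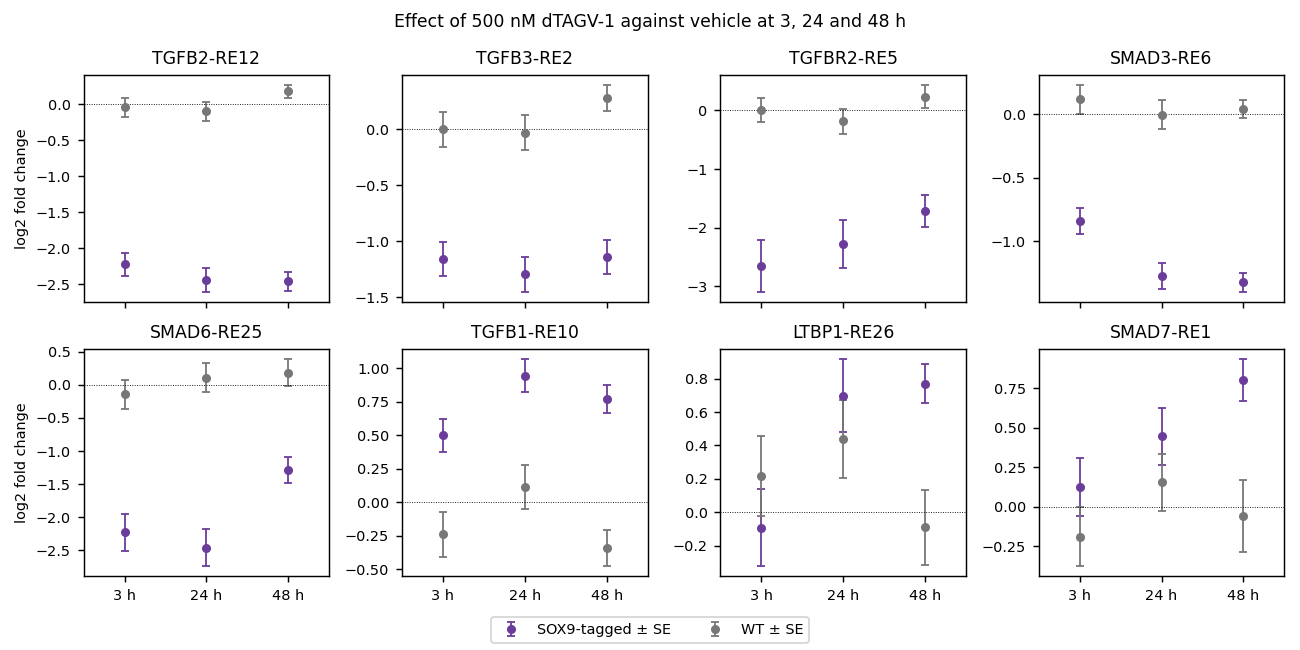
Log2 fold changes ± SE of 500 nM against vehicle at 3, 24 and 48 h are shown for 8 REs, in purple for SOX9-tagged cells (2 replicates at 3 and 24 h, 7 at 48 h) and in grey for WT cells (2 replicates at each time), with a vertical scale of its own in each panel. TGFB2-RE12 is at -2.23 by 3 h, SMAD3-RE6 goes from -0.84 at 3 h to -1.32 at 48 h, and the WT points stay near 0 for the falling REs.

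WT cells separate the effect of SOX9 loss from that of dTAGV-1 itself. In WT cells, edgeR and DESeq2 called 0 member REs at 3 h and 0 at 24 h (0% of all REs at both), with 8 and 11 at an unadjusted p under 0.05. At 48 h, 1 was called in WT cells (0.303% of all REs): SMAD3-RE24, which changed by -0.53 ± 0.14 on the log2 scale (adjusted p = 0.0439). DESeq2 did not call it, and the call was lost without WT R8 or RSh. The effect of 500 nM at 48 h differed between tagged and WT cells at 41 member REs, 25 with the more negative change in tagged cells and 16 with the more positive one (7.29% and 3.56% of all REs). DESeq2 called 28 (21 and 7), and the count was 13 without WT R8 and 19 without WT RSh.

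TGFB2-RE12 had the largest such difference, -2.66 on the log2 scale (adjusted p = 1.8e-11), with 10.4 and 17.2 CPM in WT cells at 0 nM and 13.3 and 17.8 CPM at 500 nM. SMAD3-RE6 differed by -1.35 (adjusted p = 5.71e-10), its WT libraries standing at 28.9 and 29.9 CPM at 0 nM and 30.2 and 30.9 CPM at 500 nM. Among gains, TGFB1-RE10 differed by 1.14 (adjusted p = 6.77e-06), with 4.72 and 5.05 CPM at 0 nM and 3.77 and 3.99 CPM at 500 nM in WT cells. These 3 differences held without either WT replicate. SMAD7-RE1 differed by 0.88 (adjusted p = 0.0216) and LTBP1-RE26 by 0.88 (adjusted p = 0.0179). The SMAD7-RE1 call was lost without WT R8 (adjusted p = 0.231) or RSh (0.156), and the LTBP1-RE26 call without WT R8 (0.579).

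At SMAD7, 7 of 37 REs differed at 48 h with the more positive change in tagged cells (18.9%, beside 3.56% of all REs), and none with the more negative one. Among these, SMAD7-RE2, SMAD7-RE30 and SMAD7-RE31 were not called in tagged cells alone, in a fit with the differentiation rather than the replicate as block. The median log2 fold change of the locus in WT cells was -0.10. These calls lean on 2 WT libraries a group, and over all members DESeq2 called 7 more positive differences beside 16 with edgeR. At 3 h the effect differed at 17 member REs (16 more negative in tagged cells; 5.2% of all REs in either direction) and at 24 h at 21 (19 more negative; 6.73% of all REs). Without tagged R4 these counts were 9 and 9.

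**Figure D5:**
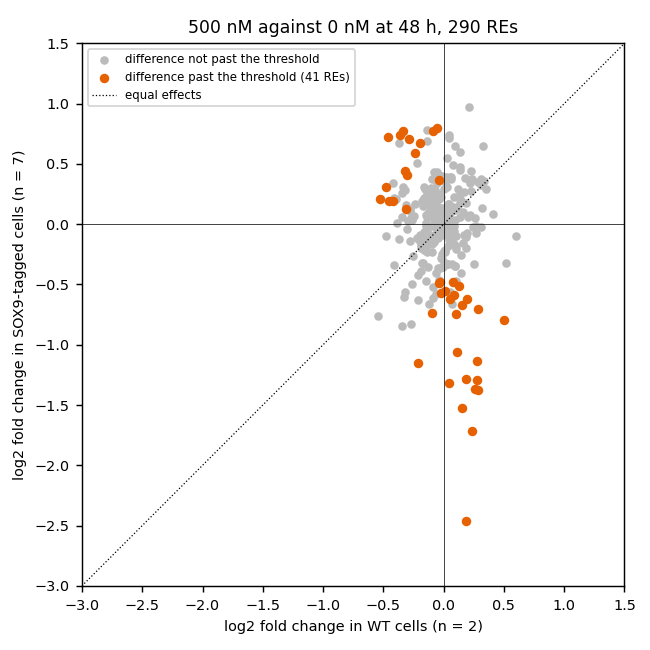
Each of the 290 REs is placed by its log2 fold change of 500 nM against 0 nM at 48 h in WT cells (horizontal, n = 2) and in SOX9-tagged cells (vertical, n = 7), on equal scales. Orange points are the 41 REs whose effect differed past the adjusted p of 0.05, with TGFB2-RE12 lowest, and the dotted line marks equal effects. The WT changes stay between -0.54 and 0.60, while the tagged changes reach -2.46.

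Without dTAGV-1, tagged and WT cells differed at 3 member REs (0.95% of all REs). This fit held only differentiations with both genotypes. For each genotype these were the R4 and R5 vehicle libraries of the time course and the R8 library at 0 nM and 48 h. TGFBR2-RE5 was lower in tagged cells (-0.97 ± 0.22, adjusted p = 0.0339), as was SMAD7-RE18 (-0.68 ± 0.13, adjusted p = 0.0115), and TGFBR1-RE13 was higher (0.80 ± 0.17, adjusted p = 0.0209). DESeq2 called 1 of them, and without the R4 differentiation 8 REs passed.

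The letters of the SOX core and of AP-1 were counted on both strands in the REs of 501 bp, 229 of which are members. ACAATG stood in 11 of the 35 falling member REs (31.4%, beside 29.6% of all falling REs), in 5 of the 28 rising ones (17.9%, beside 19.8%) and in 26 of the 166 others (15.7%, beside 19.9%). In those lower at both 3 h and 48 h the core stood in 8 of 14 (57.1%, beside 40.9%). TGANTCA stood in 11 of the 28 rising member REs (39.3%, beside 26.6% of all rising REs), in 3 of the 35 falling ones (8.6%, beside 13.8%) and in 27 of the 166 others (16.3%, beside 14.4%). Over all 501-bp REs the shares were 21.2% for ACAATG and 15.5% for TGANTCA. A pair of facing cores, ACAATG and CATTGT 3 to 5 bases apart, stood in none of the members and in 0.038% of all 501-bp REs. The SMAD palindrome GTCTAGAC stood in 1 of the 229 members, beside 0.4% of all. These are matches of letters and not binding sites.

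The loci of other pathway genes, taken with the same windows, gave a similar range. Near 5 other SMAD genes, 13 of 83 REs fell and 10 rose, and near genes for latency and activation 24 of 190 fell and 15 rose. Near activin-type receptors and co-receptors 24 of 158 fell and 5 rose (15.2% and 3.2%, beside 13.9% and 10.2% of all REs), near inhibitors and repressors 15 of 167 fell and 15 rose, and near target genes 36 of 190 fell and 22 rose (18.9% and 11.6%). The largest change of each group was a loss. An RE near ACVR1, an activin and BMP receptor (chr2:157941424-157941924), fell from 3.17 ± 1.58 to 0.433 ± 0.20 CPM (log2 fold change -2.83 ± 0.21). One near FN1, the gene of fibronectin (chr2:215521783-215522679), fell from 11.4 ± 3.24 to 1.82 ± 0.45 CPM (-2.66 ± 0.11). One shared by the windows of SMAD5 and TGFBI (chr5:136096557-136097495) changed by -2.39 ± 0.20, one at LTBP2 (chr14:74682444-74682944) by -2.33 ± 0.15, and one at TGIF1, a SMAD co-repressor (chr18:3526068-3527032), by -2.26 ± 0.09. At 3 h these REs stood between -2.64 and -1.54, and in WT cells at 48 h between -0.03 and 0.38.

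Promoter REs of marker genes were examined for the identity of the cells. The 7 cranial neural crest markers (TFAP2A, TFAP2B, TWIST1, NR2F1, NR2F2, PRRX1 and SOX9) had 19.95 to 60.63 CPM at 0 nM, and their sum ranged from 253.4 to 362.4 CPM at 0 nM and from 272.5 to 365.0 CPM at 500 nM. The SOX9 promoter rose by 0.16 on the log2 scale (adjusted p = 0.0212), which does not measure the degraded protein. Of the pluripotency markers, POU5F1 was at 1.28, DPPA4 at 12.36, PRDM14 at 29.21 and LIN28A at 42.46 CPM at 0 nM, and NANOG had no promoter RE. PRDM14 and LIN28A lay within the range of the crest markers, so these levels alone do not tell the 2 identities apart. LIN28A fell by 0.29 on the log2 scale (adjusted p = 6.69e-04). The 4 detected markers summed to between 64.0 and 117.4 CPM at 0 nM and between 61.1 and 93.0 CPM at 500 nM. Of 4 neural progenitor markers LHX2 rose by 0.26 (sums of 36.7 to 63.1 and 49.5 to 68.8 CPM), of 3 neuronal markers NEUROD1 fell by 0.25 (23.5 to 30.2 and 20.1 to 25.7 CPM), and neither of the epithelial markers EPCAM and CDH1 passed (13 to 16.7 and 13.6 to 17.0 CPM). The part of these shifts in the changes at the TGF-beta loci was not tested.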

How the data were processed

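ATAC-seq, which reads open chromatin, was done by the authors on the 58 libraries. Per the study's methods and the submitters' processing notes, reads were aligned to hg38 with Bowtie2 (2.4.1) and filtered with SAMtools (1.10), peak summits were called with MACS2 (2.2.7.1), and summits were widened and merged into REs. The deposited table holds raw counts per RE and library, not normalized.

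Groups came from sample titles. For one replicate (S9CC13_R14) the dose labels of the 0 and 0.5 nM libraries disagreed with the titles, which were used. The 3 SOX9-tagged R5 time-course columns name clone S9CC47 while the matching titles name S9CC13. The match rests on the differentiation number, dose and hours, so the clone of those libraries is uncertain, and no fit used it. The counts were analysed with edgeR (4.0.16, R 4.3.3), by a quasi-likelihood F test with TMM factors, no filter and the differentiation as a term. For differences between tagged and WT effects, the replicate within each genotype replaced the differentiation. Adjustment was by Benjamini-Hochberg over all 151457 REs at 0.05. DESeq2 (1.42.0), RLE factors, no scaling, filterByExpr, the replicate as block, no block, other windows and leaving out each replicate were tried. The scripts were tested on simulated data.

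In the dose series, same-numbered libraries share a clone and a differentiation by their titles, and their deviations from the group means correlated (mean 0.64 at 500 nM), so replicate numbers pair the samples. The lowest correlation was 0.21, at 5 nM. No libraries were duplicates. The members and gene lists were chosen with earlier results of these data known. REs were named by rule: the most accessible promoter RE of each gene, the largest decrease and increase per locus changed alike in all 7 replicates, every RE past the threshold at 1.6 nM, and up to 3 REs past it at 3 h and not at 48 h. For each other pathway group the largest such change was named. Intervals and floors were not needed because every value has replicates, whose number and depth limit the precision. One marker list is not reported here.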

Additional observations from a re-analysis of the deposited data

Results flagged for a closer look

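The log2 fold change of the SMAD6 promoter RE (SMAD6-RE19) at 500 nM was 0.377 in replicate S9CC47_R8, far from the other 6 replicates, which ranged from 0.062 to 0.174. It was the 1 group past Dixon's 95% value of 0.568 among 45 groups of 7 tested, and chance flags about 1 in 20.

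By the interaction test in edgeR, the effect of 500 nM differed between SOX9-tagged and WT cells at 41 member REs after 48 h. In tagged cells 25 were more negative and 16 more positive (8.62% and 5.52% of members, beside 7.29% and 3.56% of all REs). After 3 h the effect differed at 17 (16 and 1), which is 5.86% beside 5.2% of all REs. After 24 h it differed at 21 (19 and 2), which is 7.24% beside 6.73%. The members thus stood close to the background at 3 and 24 h.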

How the results depend on the processing

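Of the 39 named changes past the threshold at 500 nM, 39 kept their direction in every alternative. In all, 21 passed in every alternative and 33 in every one but the fit without a block. Nearly all were named for their 500 nM change or after their values were seen, so the kept directions are no added support. With DESeq2, the member REs called were 15 at 3 h, 30 at 24 h, 1 at 1.6 nM, 0 in WT cells at 48 h and 1 between untreated tagged and WT cells. With the replicate block, 82 passed at 16 nM and 4 at 1.6 nM, and no other count moved by over 1.5 times. With no replicate block, 27 passed at 500 nM, 12 at 16 nM, 3 at 5 nM, 0 at 3 h, 2 at 24 h, 0 in WT cells at 48 h and 0 between untreated cells. Leaving out each replicate gave 10 to 28 at 5 nM, 0 to 3 at 1.6 nM, 0 to 1 at 0.5 nM, 10 to 15 at 3 h, 12 to 33 at 24 h and 0 to 0 in WT cells at 48 h. For the differences between tagged and WT effects it gave 13 to 19 at 48 h, 9 to 16 at 3 h and 9 to 20 at 24 h, and 2 to 8 between untreated cells. An arm left with 1 library was assumed to vary like the others.

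Small changes reversed. TGFB3-RE9 (-0.003) was 0.008 with DESeq2, 0.008 with RLE factors and 0.035 without scaling, and -0.028 to 0.029 when replicates were left out. SMAD7-RE19 (-0.014) was 0.024 without scaling and -0.087 to 0.069 when replicates were left out. Leaving out replicates gave -0.092 to 0.002 for SMAD3-RE11 (-0.056) and -0.241 to 0.018 for SMAD3-RE37 (-0.101). Where counts moved, the cause was not tested, beyond fewer libraries when a replicate was left out. The 2 libraries a group limited the time course and the WT cells.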
